A study of Mus musculus with 31 samples.

Results

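Acute-phase proteins are described here across the liver arrays of mice lacking ChREBPβ or all ChREBP. The members are Saa1, Saa2, Saa3, Orm1, Orm2, Hp, Hpx, Lcn2, Apcs and Crp. All probes that carry 1 of these 10 gene names were taken, which gave 12 of the 36057 probes in the deposited table and 10 of its 23968 gene names. All 10 genes had at least 1 probe, and all 12 probes were well above background on all 31 arrays. The rule did not use the measured values.

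The study asked how gene expression depends on ChREBP, a glucose-activated transcription factor encoded by Mlxipl, and on its β isoform. All mice were male C57BL6/J mice that had 24 hours of fasting and then 18 hours of refeeding, when the drinking water held 20% glucose. The first line held 8 ChREBPβ-deficient mice (labelled ChREBPbeta_KO), made by CRISPR/Cas9 removal of the exon specific to that isoform, and 8 WT littermates. The second line held 7 total ChREBP-KO mice (labelled ChREBPtotal_KO), which are Mlxipl-null and lack both isoforms, and 8 WT littermates. Replicate 3 of the total ChREBP-KO mice was not analysed here. Both deletions were present in every tissue, so a liver value can include effects of other organs. Each mouse had 1 array, and mice of a group were taken as replicates.

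The acute-phase response is the change in plasma proteins made by hepatocytes during inflammation. Cytokines such as interleukin-6 and interleukin-1 act on hepatocytes through STAT3, NF-κB and C/EBP transcription factors. Secretion of positive acute-phase proteins then increases, while that of negative acute-phase proteins such as albumin and transthyretin decreases. In mice the serum amyloid A proteins and serum amyloid P are the main strongly induced members, and C-reactive protein, the classical human marker, responds weakly.

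Levels are given as log2 of the normalized median pixel intensity of a spot. A level of 1 probe was not compared with that of another, because probes bind with different strength. Where a gene had 2 probes, the brighter one stands for the gene. The 60-base probes of several members are printed with their positions on mouse build mm9, because they define which transcript was read. For Lcn2 the printed probe is the dimmer one, and the brighter one (A_55_P2070869, chr2:32240199-32240258, minus strand) stands for the gene.
Saa1 (A_52_P318673), chr7:53996070-53996129, minus strand: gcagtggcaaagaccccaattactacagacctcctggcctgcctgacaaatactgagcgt
Saa3 (A_66_P106131), chr7:53967559-53967618, minus strand: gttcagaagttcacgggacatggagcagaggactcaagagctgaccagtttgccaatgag
Orm1 (A_55_P2734867), chr4:63007395-63009038, plus strand, crossing an intron: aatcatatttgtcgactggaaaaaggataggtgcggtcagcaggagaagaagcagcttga
Orm2 (A_51_P141546), chr4:63024979-63025038, plus strand: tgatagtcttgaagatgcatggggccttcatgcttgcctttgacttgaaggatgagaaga
Lcn2 (A_51_P510156), chr2:32241037-32241281, minus strand, crossing an intron: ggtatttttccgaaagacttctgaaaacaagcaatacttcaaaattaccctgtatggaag
Apcs (A_51_P354165), chr1:174824959-174825018, minus strand: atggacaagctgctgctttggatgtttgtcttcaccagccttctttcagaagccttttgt
The array annotation lists transcripts of both Orm1 and Orm2 for the Orm1 probe, and how far it reads Orm2 was not tested. The Saa1 and Saa2 probes had 45.3% identity to each other over 64 aligned positions, and the genes are close copies. How far either probe reads the transcript of the other gene was not tested. The Saa2 probe (A_51_P166886) lies at chr7:54009535-54009594, next to Saa1 and on the opposite strand.

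Promoters are shown for 5 members because these genes varied together or, for Crp, changed the opposite way. The sequences are the 250 bases before the start site in RefSeq (build GRCm38.p6), where 8 of the 10 members had an entry. Capitals mark matches on either strand to the C/EBP motif TTNNGNAA, the STAT motif TTCNNNGAA or the NF-κB decamer.
Saa1, chr7:46742981-46743230, minus strand: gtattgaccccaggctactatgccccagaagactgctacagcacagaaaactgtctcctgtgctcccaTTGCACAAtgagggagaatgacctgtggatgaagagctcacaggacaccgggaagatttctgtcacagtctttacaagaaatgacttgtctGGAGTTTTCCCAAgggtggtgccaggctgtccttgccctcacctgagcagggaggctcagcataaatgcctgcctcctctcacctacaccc
Saa2, chr7:46751583-46751832, plus strand: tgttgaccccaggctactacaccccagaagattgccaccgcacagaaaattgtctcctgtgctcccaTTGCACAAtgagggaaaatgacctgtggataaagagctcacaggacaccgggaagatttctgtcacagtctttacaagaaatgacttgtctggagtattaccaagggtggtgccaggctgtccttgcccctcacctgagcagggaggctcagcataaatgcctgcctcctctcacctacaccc
Orm2, chr4:63362199-63362448, plus strand: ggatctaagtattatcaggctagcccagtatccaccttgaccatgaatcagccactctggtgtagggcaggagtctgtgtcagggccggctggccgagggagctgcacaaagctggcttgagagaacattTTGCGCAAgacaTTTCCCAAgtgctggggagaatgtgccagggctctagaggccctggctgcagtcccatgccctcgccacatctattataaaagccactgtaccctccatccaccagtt
Lcn2, chr2:32387740-32387989, minus strand: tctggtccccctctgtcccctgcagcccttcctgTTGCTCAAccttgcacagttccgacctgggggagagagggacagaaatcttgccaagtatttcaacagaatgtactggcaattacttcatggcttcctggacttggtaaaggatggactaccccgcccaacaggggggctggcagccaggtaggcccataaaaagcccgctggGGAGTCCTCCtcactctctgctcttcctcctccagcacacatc
Crp, chr1:172697806-172698055, plus strand: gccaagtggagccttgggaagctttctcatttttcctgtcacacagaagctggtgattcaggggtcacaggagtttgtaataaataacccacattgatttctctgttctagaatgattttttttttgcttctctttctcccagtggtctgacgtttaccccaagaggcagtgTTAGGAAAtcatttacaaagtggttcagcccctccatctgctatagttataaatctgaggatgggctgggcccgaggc
The Saa1 and Saa2 promoters were 94.8% identical over 251 aligned positions. Both held the same C/EBP match, TTGCACAA, which starts at position -182 in Saa1 and -183 in Saa2. Only the Saa1 window of this pair matched the NF-κB decamer, with GGAGTTTTCC at positions -91 to -82, which overlaps a further C/EBP match from -86 to -79. A C/EBP match was found in 7 of the 8 member promoters and in 36.8% of 32851 promoters. An NF-κB match was found in 2 of the 8, Saa1 and Lcn2, and in 9.55% of all promoters. A STAT match was found in Apcs alone among the 8, and in 7.02% of all promoters. These matches describe letters in a window and are not binding sites.

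The targeted gene was checked first. The brightest Mlxipl probe (A_55_P2119957) ranged from 14.40 to 14.84 in ChREBPβ-deficient mice and from 14.88 to 15.33 in their WT littermates. It ranged from 13.89 to 14.30 in total ChREBP-KO mice and from 15.14 to 15.48 in their WT littermates. Groups of each line did not overlap, and the log2 differences were -0.45 (limma adjusted p = 0.0152) and -1.16 (adjusted p = 8.05e-13). The call in ChREBPβ-deficient mice was lost with slide as a fixed block (adjusted p = 0.30), the replicate block (0.46), a separate fit (0.218) and the exact Mann-Whitney test (0.477), and without ChREBPβ-deficient replicate 5 or 6 or WT replicate 6 or 7. Among the other Mlxipl probes, A_55_P2728555 gave -0.46 (limma adjusted p = 0.909) and -0.59 (adjusted p = 0.00313), and A_55_P2045158 gave -0.06 (adjusted p = 1) and -0.05 (adjusted p = 0.603). Correlations between arrays ranged from 0.98 to 0.999. Arrays lay on 15 slides and were scanned on 2 days, each of which held all 4 groups. All 10 hepatocyte markers were above background on all arrays. Their summed signal on the log2 scale was 20.36 to 20.47 in total ChREBP-KO mice and 20.17 to 20.27 in their WT littermates, so these groups did not overlap, with 3 markers higher and 1 lower by limma (Cyp2e1 0.69, adjusted p = 1.06e-09). The sum includes Alb, whose probe had 1 value in all mice. The part of this shift in the acute-phase results was not tested.

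In total ChREBP-KO mice most acute-phase members were lower than in WT littermates. By the probe that stands for the gene, 7 of the 10 members fell, Crp rose, and Hp and Lcn2 did not pass the threshold, while 14.8% of all genes fell and 14.4% rose. Among the 12 probes, 8 fell and 1 rose, whereas 29.1% of all probes passed, 14.6% lower and 14.5% higher. The median log2 difference of the 10 genes was -1.11, beside 0.01 over all 23968 genes. Because the arrays measured RNA of whole liver, fewer cells expressing a gene and less RNA per cell cannot be told apart.

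**Figure D1:**
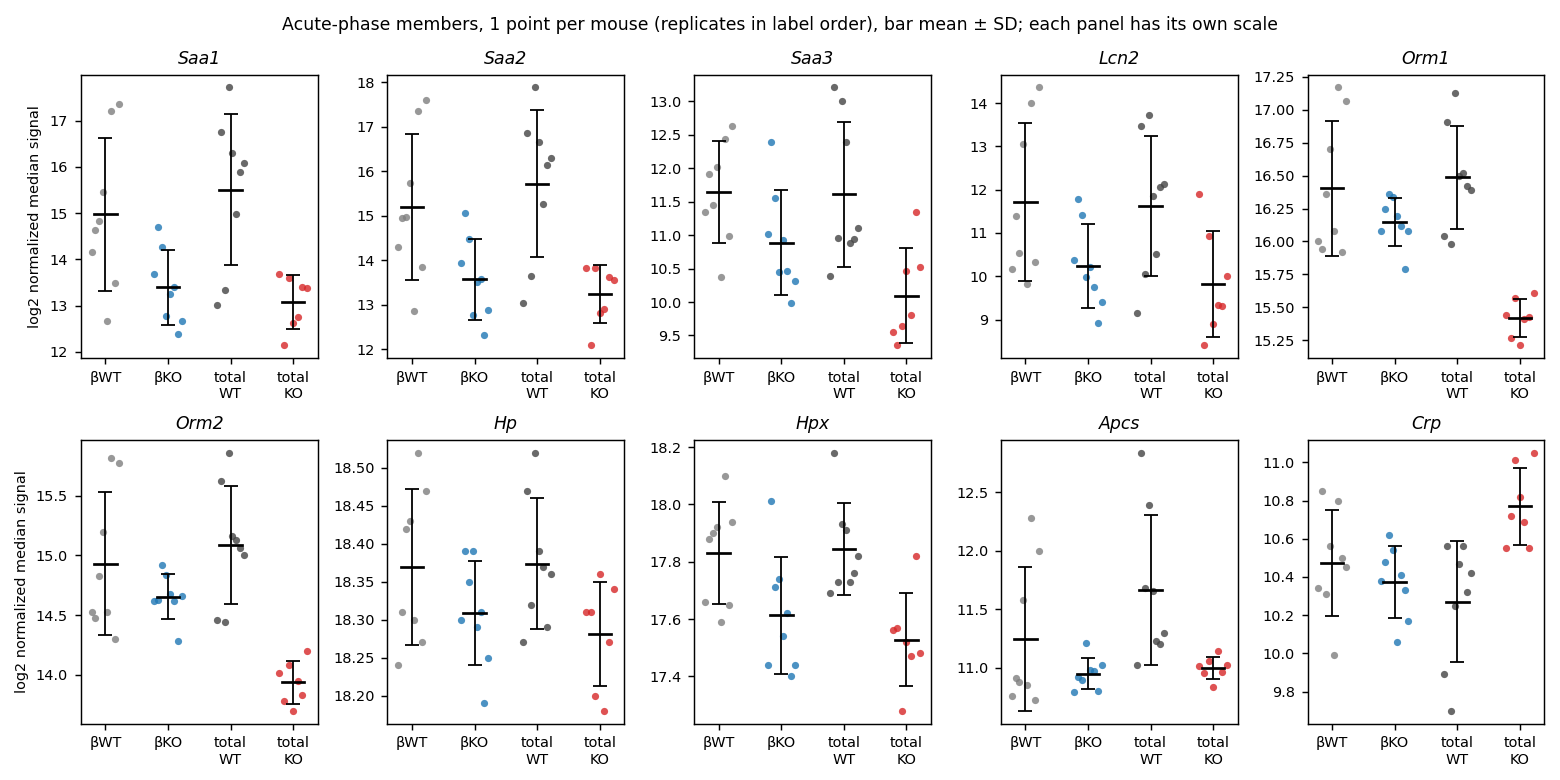
Log2 normalized median signal of the 10 members (y axis, own scale per panel) for each mouse of the 4 groups (x axis), with mean and SD. Orm1 and Orm2 of all 7 total ChREBP-KO mice lie below all 8 WT littermates, whereas Saa1, Saa2 and Lcn2 spread widely among WT mice.

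Saa1 and Saa2 showed the greatest differences of the members. Saa1 and Saa2 encode the inducible apolipoproteins of high-density lipoprotein in inflammation. In the WT littermates of total ChREBP-KO mice, Saa1 had a lowest value of 13.01, a median of 15.99 and a highest value of 17.72. In total ChREBP-KO mice the lowest was 12.14, the median 13.38 and the highest 13.68. All 7 total ChREBP-KO mice were below the WT median, but WT replicates 1 and 3 were as low as the knockouts, so the groups overlapped. The log2 difference was -2.43 (95% confidence interval -3.70 to -1.15, limma adjusted p = 0.00358), a 5.38-fold lower signal. Saa2 behaved alike, with 13.05, 16.22 and 17.88 as lowest, median and highest in WT littermates and 12.09, 13.57 and 13.83 in total ChREBP-KO mice. Its difference was -2.49 (interval -3.79 to -1.19, limma adjusted p = 0.00342), and the same WT mice were low. The exact Mann-Whitney test, adjusted over all probes, kept Saa2 (adjusted p = 0.0419) and lost Saa1 (adjusted p = 0.0736).

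Saa3 encodes a serum amyloid A made by macrophages and adipocytes as well as by liver. It ranged from 10.39 to 13.21 with a median of 11.04 in WT littermates and from 9.35 to 11.34 with a median of 9.81 in total ChREBP-KO mice. The groups overlapped, since total ChREBP-KO replicate 7 reached 11.34 while 4 others were below every WT mouse. The difference was -1.51 (interval -2.36 to -0.67, limma adjusted p = 0.00597), and the exact Mann-Whitney test did not keep it (adjusted p = 0.0558).

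Lcn2 encodes lipocalin-2, which binds bacterial siderophores and is abundant in neutrophils as well as induced in hepatocytes. The brighter probe (A_55_P2070869) had 9.16, 11.96 and 13.72 as lowest, median and highest in WT littermates. In total ChREBP-KO mice these were 8.40, 9.33 and 11.91. All knockout mice were below the WT median, and replicates 1 and 4 were the high ones among them. The difference of -1.79 (interval -3.24 to -0.35) did not pass, with a limma adjusted p of 0.0558. The other probe (A_51_P510156) gave -1.93 (interval -3.38 to -0.49) and passed with an adjusted p of 0.0385. Lcn2 was therefore at the edge of the threshold, and single arrays moved either probe across it.

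Orm1 and Orm2 encode α1-acid glycoproteins, plasma lipocalins that bind basic drugs and modulate immunity. Orm1 ranged from 15.98 to 17.13 with a median of 16.46 in WT littermates and from 15.21 to 15.61 with a median of 15.43 in total ChREBP-KO mice. Orm2 ranged from 14.44 to 15.86 with a median of 15.10 in WT littermates and from 13.70 to 14.20 with a median of 13.95 in total ChREBP-KO mice. For both genes every total ChREBP-KO mouse was below every WT littermate, which 4.14% of all probes showed. The differences were -1.07 for Orm1 (interval -1.42 to -0.72, limma adjusted p = 1.66e-05) and -1.15 for Orm2 (interval -1.57 to -0.74, limma adjusted p = 6.22e-05). These differences were smaller than that of Saa1 but had the lowest adjusted p-values of the members. The low WT replicates 1 and 3, which reached knockout levels of Saa1, stayed above all knockouts in Orm1 and Orm2.

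Hp and Hpx encode haptoglobin and hemopexin, which capture free hemoglobin and heme. Hp ranged from 18.27 to 18.52 in WT littermates and from 18.18 to 18.36 in total ChREBP-KO mice, a difference of -0.09 (interval -0.19 to 0.00, limma adjusted p = 0.151). Hpx ranged from 17.69 to 18.18 in WT littermates and from 17.28 to 17.82 in total ChREBP-KO mice. Its difference of -0.32 passed (interval -0.50 to -0.13, limma adjusted p = 0.00794), and 6 of the 7 total ChREBP-KO mice were below all WT littermates. The Hp and Hpx probes ranked 28 and 86 in mean brightness among 36059 probes. With scaling of the median signal to percentile 75 in place of quantile normalization, Hp gave -0.16 (adjusted p = 0.128) and Hpx gave -0.38 (adjusted p = 0.003).

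The pentraxins Apcs and Crp went in opposite directions. Apcs encodes serum amyloid P, which binds amyloid fibrils and microbial surfaces. It ranged from 11.02 to 12.84 with a median of 11.48 in WT littermates and from 10.83 to 11.14 with a median of 11.01 in total ChREBP-KO mice. The knockouts were tightly grouped (SD 0.10, n = 7) and WT mice were not (SD 0.64, n = 8), with WT replicates 2 and 4 high. The difference was -0.67 (interval -1.13 to -0.21, limma adjusted p = 0.0243). It lost the call without WT replicate 2 (-0.50, adjusted p = 0.0605) or WT replicate 4 (-0.57, adjusted p = 0.0615).

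Crp encodes C-reactive protein. Its main probe (A_51_P105554, chr1:174629452-174629511, plus strand) ranged from 9.70 to 10.56 with a median of 10.37 in WT littermates and from 10.55 to 11.05 with a median of 10.72 in total ChREBP-KO mice. The lowest knockout values lay just inside the WT range, and 5 of 7 knockouts were above all WT mice. The rise was 0.50 (interval 0.25 to 0.76, limma adjusted p = 0.00274). A dim probe also named Crp (A_66_P106501, chr1:174762815-174762874, plus strand) lies apart from the gene and gave -0.23 (limma adjusted p = 0.166). The 2 probes disagreed in sign, and only the first lies at the Crp gene.

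**Figure D2:**
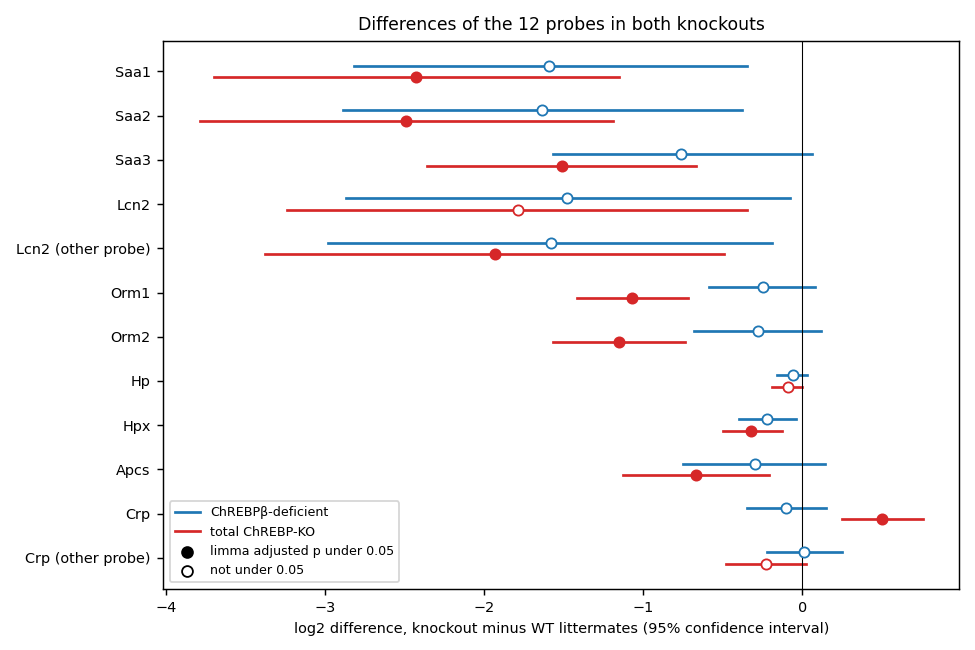
Log2 difference of the 12 probes (x axis) in ChREBPβ-deficient and total ChREBP-KO mice against their WT littermates, with 95% confidence intervals and filled points where the limma adjusted p was under 0.05. In total ChREBP-KO mice 9 of the 12 points are filled and in ChREBPβ-deficient mice none is.

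In ChREBPβ-deficient mice no member passed the test, and 0.00277% of all probes did. The limma adjusted p was at least 0.989 for all 12 probes. At an unadjusted limma p under 0.05 there were 4 genes, Saa1, Saa2, Hpx and Lcn2, all lower, beside 4.98% of all probes in either direction and 2.45% lower. The exact Mann-Whitney test called 0 of 36059 probes after adjustment, and 2241 without it, among them Saa1, Saa2 and the other Lcn2 probe. Over both scan days together the difference was negative for 10 of 10 genes, beside 50.4% of all probes, and their median was -0.29. On scan day 1 alone not all 10 were negative. These members covaried between mice, so the 10 signs are not independent.

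The wide WT spread limited this comparison. Saa1 had 12.68, 14.73 and 17.37 as lowest, median and highest in WT littermates and 12.38, 13.34 and 14.71 in ChREBPβ-deficient mice. All 8 ChREBPβ-deficient mice were below the WT median, WT replicates 6 and 8 were the highest mice, and WT replicate 5 was among the lowest. The difference was -1.59 (interval -2.82 to -0.35, limma adjusted p = 0.989). Saa2 gave -1.64 (interval -2.89 to -0.38) and Saa3 gave -0.76 (interval -1.57 to 0.06). Lcn2 had 9.82, 10.97 and 14.36 in WT littermates and 8.93, 10.11 and 11.78 in ChREBPβ-deficient mice, and gave -1.48 (interval -2.87 to -0.08). WT replicates 4, 6 and 8 were the high mice for Lcn2.

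The other members differed less. Orm1 gave -0.25 (interval -0.59 to 0.08) and Orm2 gave -0.28 (interval -0.68 to 0.12). Hpx ranged from 17.59 to 18.10 in WT littermates and from 17.40 to 18.01 in ChREBPβ-deficient mice, a difference of -0.22 (interval -0.40 to -0.04). Hp, Apcs and Crp gave -0.06, -0.30 and -0.10, and each interval included 0. The intervals of Saa1 and Lcn2 leave room for differences as large as those of total ChREBP-KO mice, so absence of an effect was not shown.

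Differences were uneven between scan days for several members. In the ChREBPβ line the days held 3 knockout and 4 WT arrays on day 1 and 5 and 4 on day 2. For Lcn2 the difference was -0.14 on day 1 and -2.48 on day 2, and for Saa1 it was -0.49 and -2.48. Saa2 (-0.52), Hpx (-0.01) and Apcs (-0.05) were also below 0 on day 1 of this line. Saa3 (0.03), Orm1 (0.05), Orm2 (0.03), Hp (0.01) and Crp (0.12) were above 0 on day 1. On day 2 they gave -1.31, -0.49, -0.53, -0.11 and -0.25 in that order. In total ChREBP-KO mice the difference was -1.57 and -2.09 for Lcn2 and -2.20 and -2.63 for Saa1, so the direction of these 2 held on both days. Saa3 and Apcs were uneven in total ChREBP-KO mice too, with -2.14 and -0.77 for Saa3 and -1.02 and -0.31 for Apcs. Orm1 in total ChREBP-KO mice gave -1.14 and -0.98, and Crp gave 0.68 and 0.32. With scan day as a block no member call changed.

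Whether the 2 deletions differed in effect was tested with the difference of differences. Each deletion was in its own line, so a difference by deletion and one by line cannot be told apart here. Among the 10 genes 3 passed, 2 lower and 1 higher, beside 15.1% of all probes, 8.08% lower and 7.02% higher. Orm1 was lower by a further 0.81 on the log2 scale in the total knockout (-0.81, interval -1.30 to -0.33, limma adjusted p = 0.0182). Orm2 gave -0.87 (interval -1.45 to -0.30, adjusted p = 0.0334) and Crp gave 0.60 (interval 0.25 to 0.96, adjusted p = 0.0166). For Saa1 (-0.84, interval -2.62 to 0.93, adjusted p = 0.582), Saa2 (-0.85), Saa3 (-0.76) and Lcn2 (-0.32, interval -2.33 to 1.69) a difference between the deletions was not shown. The Orm2 call was lost without any 1 of 7 arrays, and the Crp call was lost with slide as a fixed block (0.52, adjusted p = 0.0907).

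The WT littermates of the 2 lines were compared as a background. None of the 10 genes passed by its main probe, beside 17% of all probes, and the highest difference was 0.53 for Saa1 (limma adjusted p = 0.596). At an unadjusted limma p under 0.05 there were 0 of the 10, and the exact Mann-Whitney test called 0 of them as well. The dim Crp probe alone was lower in the WT littermates of total ChREBP-KO mice (-0.62, limma adjusted p = 0.000402), beside 8.92% of all probes that were lower. Some other genes of the acute-phase pathway did differ. In the WT littermates of total ChREBP-KO mice 8 of 29 signal transducers and transcription factors were higher and 0 lower. Over all probes 17% passed in either direction and 8.92% were lower. Of 10 cytokines 4 were higher and 1 lower, and of 41 other positive acute-phase genes 2 were higher and 2 lower. Of 18 feedback inhibitors and early targets 3 were higher and 1 lower, and of 15 receptors 1 was higher and 0 lower. Of 21 negative acute-phase genes 1 was higher and 0 lower, and of 15 partners that bind or clear the members 0 were higher and 2 lower. Cebpb (0.97, limma adjusted p = 6e-07) and Tnf (0.71, adjusted p = 0.00473) were among the higher ones. Line, litter and housing cannot be told apart in this comparison.

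The members differed strongly in their spread between mice of 1 genotype. The SD within groups was 1.45 for Lcn2, 1.31 for Saa2 and 1.28 for Saa1, all at percentile 99.9 of 36059 probes, whose median SD was 0.16. Saa3 followed with 0.85 and Apcs with 0.46. Orm2 and Orm1 had 0.42 and 0.35, Crp had 0.25, and Hpx and Hp had 0.18 and 0.08. Saa1 spanned a 25.9-fold range in WT littermates of the ChREBPβ line and a 26.1-fold range in those of total ChREBP-KO mice. The range was 5.05-fold in ChREBPβ-deficient and 2.91-fold in total ChREBP-KO mice. The SD was lower in knockout than in WT mice of both lines for Saa1, Saa2, Lcn2, Orm1, Orm2, Hp, Apcs and Crp. For Apcs and Orm2 the SDs were 0.62 and 0.60 in WT and 0.14 and 0.19 in knockout mice of the ChREBPβ line. In the other line they were 0.64 and 0.49 in WT and 0.10 and 0.18 in knockout mice. The share of all probes with a lower SD in knockout mice of both lines was not computed. Saa3 (0.76 in WT and 0.78 in knockout mice) and Hpx (0.18 and 0.20) did not have a lower SD in knockout mice of the ChREBPβ line, nor did Hpx in the other line (0.16 in both). The median SD over all probes was 0.14 to 0.16 in each group. Limma uses 1 spread for all groups. With weights estimated per group no member call changed, but each group had 1 weight from all probes. The weight was 0.96 in WT littermates of total ChREBP-KO mice and 0.895 in total ChREBP-KO mice. Such weights cannot follow the spread of single members, so the effect of their unequal spread on the calls was not tested.

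**Figure D3:**
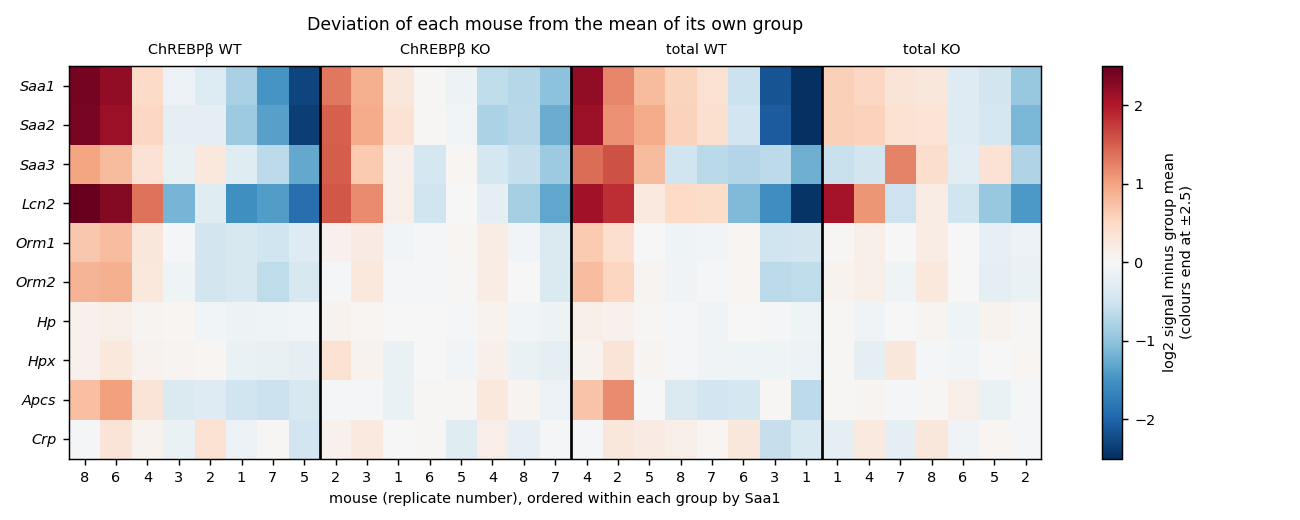
Deviation of each mouse (columns, replicate numbers, ordered by Saa1 within each group) from its group mean on the log2 scale for the 10 members (rows). Saa1, Saa2 and Lcn2 deviate by over 2 above the mean in WT replicates 6 and 8 of the ChREBPβ line and replicate 4 of the other WT group, and by over 2 below it in replicate 1 of the latter, and Hp hardly deviates.

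Members that varied did so together. The deviation of each mouse from its group mean was correlated between Saa1 and the other 9 members over 31 mice, with 100000 permutations of mice within groups (two-sided, Benjamini-Hochberg over 9). All 9 correlations were positive and passed. The test was run on members only, so the share of all genes that would pass it is not known. Saa2 followed Saa1 with r and rho that both rounded to 1 (permutation adjusted p = 3e-05 for each), though reading of both transcripts by 1 probe was not tested. Lcn2 had r = 0.92 and rho = 0.95 with the same permutation adjusted p. Its unadjusted p of 1e-05 is the smallest these permutations can give.

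Orm2 had r = 0.88 and rho = 0.78 (permutation adjusted p = 3.6e-05 and 4.5e-05), and Orm1 had r = 0.87 and rho = 0.80 (3.6e-05 and 5.4e-05 by permutation). The 2 Orm genes correlated with each other with r = 0.99, and the array annotation lists both genes for the Orm1 probe. Saa3 had r = 0.79 and rho = 0.77 (permutation adjusted p = 3e-05 for each). Hp, despite its small spread, had r = 0.70 and rho = 0.65 (permutation adjusted p = 0.000167 and 0.000591). Hpx had r = 0.64 and rho = 0.65 (permutation adjusted p = 0.00015 and 0.000255). Both pentraxins had the lowest rho, with r = 0.68 and rho = 0.55 for Apcs (permutation adjusted p = 0.00198 and 0.00661) and r = 0.56 and rho = 0.48 for Crp (0.00526 and 0.012 by permutation).

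Without the 2 mice farthest from the median in Saa1, r was 0.90 for Lcn2, 0.84 for Orm1 and Orm2, 0.75 for Saa3, 0.60 for Apcs and 0.56 for Crp. Within single groups Lcn2 correlated with Saa1 with r = 0.94 and 0.96 in the 2 WT groups, 0.95 in ChREBPβ-deficient and 0.86 in total ChREBP-KO mice. The Hp, Hpx and Apcs correlations were high in WT littermates of the ChREBPβ line (0.87, 0.90 and 0.91) and low in total ChREBP-KO mice (-0.18, -0.08 and 0.34). Crp rose in total ChREBP-KO mice while Saa1 fell, yet over all 31 mice their deviations from the group means correlated positively. Within single groups their r was 0.56 and 0.72 in WT littermates of the ChREBPβ and total ChREBP-KO lines. It was 0.47 in ChREBPβ-deficient and 0.07 in total ChREBP-KO mice, and none of these passed.

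**Figure D4:**
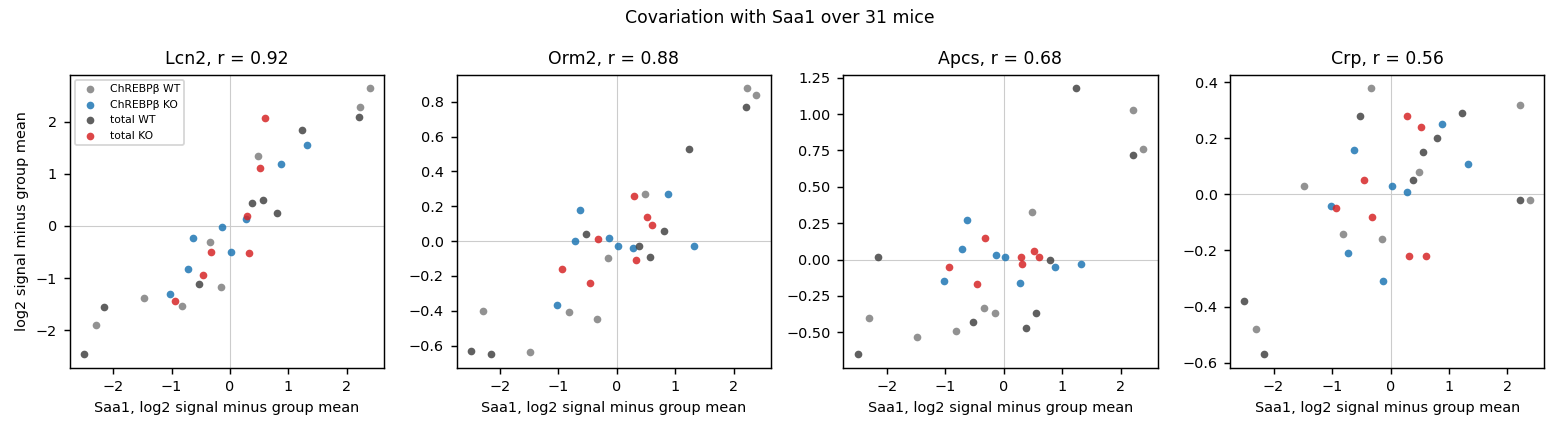
Deviation from the group mean of Lcn2, Orm2, Apcs and Crp (y axes) against that of Saa1 (x axes) in log2 units for 31 mice, colored by group. Lcn2 follows Saa1 along its whole range (r = 0.92), and Apcs departs from 0 mainly in WT mice.

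The genes outside the members whose deviations were most like those of Saa1 over 31 mice were Orm3 (r = 0.91), Cyb561 (0.88), Steap4 (0.87), Lbp (0.86) and Stap2 (0.86), among 23968 gene names. Those most like Lcn2 were Orm3 (0.90), Cyb561 (0.88), Stap2 (0.81), Cp (0.80) and Prtn3 (0.80). Orm3 is the neighboring α1-acid glycoprotein gene, Lbp encodes the lipopolysaccharide binding protein and Cp encodes ceruloplasmin, a copper carrier. In total ChREBP-KO mice Orm3 fell by 1.21 on the log2 scale (limma adjusted p = 0.0484), Lbp fell by 0.87 (adjusted p = 0.00325) and Stap2 fell by 0.29 (adjusted p = 0.0261). Prtn3, a neutrophil granule protease that was above background on 29 arrays, fell by 1.1 on the log2 scale (limma adjusted p = 0.0178). Steap4 gave -0.49 (adjusted p = 0.208) and Cyb561 gave -0.46 (adjusted p = 0.156).

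Other genes of the acute-phase pathway were examined by role, with 14.4% of all genes higher and 14.8% lower in total ChREBP-KO mice. None of these genes passed in ChREBPβ-deficient mice, where 0.00417% of all genes did. At an unadjusted limma p under 0.05 in those mice there were 2 of 10 cytokines, 0 of 15 receptors, 1 of 29 transducers, 1 of 18 feedback genes, 2 of 41 other positive genes, 1 of 21 negative genes and 0 of 15 partners. Among 10 measured cytokines 1 rose and 2 fell. Tnf gave -0.78 (limma adjusted p = 0.00129), Il18 gave 0.31 (adjusted p = 0.00854) and Il6, which was above background on 18 of the 31 arrays, gave -0.24 (adjusted p = 0.0473).

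Among 15 receptors 1 rose and 2 fell. Tlr2, a receptor for bacterial lipoproteins, fell by 1.60 on the log2 scale (limma adjusted p = 6.15e-05). The interleukin receptors Il6ra and Il1r1 gave 0.29 (adjusted p = 0.291) and 0.13 (adjusted p = 0.588). Among 29 signal transducers and transcription factors 5 rose and 8 fell. Jun, an AP-1 subunit, rose by 1.02 (adjusted p = 0.000796) and Cebpb, a C/EBP factor, fell by 0.46 on the log2 scale (adjusted p = 0.00249). The C/EBP factor Cebpe went the other way with 0.94 (limma adjusted p = 2.81e-06), and Cebpa gave 0.18 (adjusted p = 0.364). Stat3 gave -0.35 (adjusted p = 0.11) and Cebpd gave 0.04 (adjusted p = 0.901). Among 18 feedback inhibitors and early targets 1 rose and 3 fell. Socs3, an inhibitor of interleukin-6 signaling, gave -0.71 (adjusted p = 0.185), and Nfkbia, the NF-κB inhibitor, gave -0.01 (adjusted p = 0.959). Most genes of these roles did not pass the test.

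Among 41 other positive acute-phase genes 10 fell and 4 rose in total ChREBP-KO mice, and their median was -0.13. Fgl1, a hepatocyte fibrinogen-like protein, fell by 1.59 on the log2 scale (limma adjusted p = 0.000303). Lrg1 fell by 0.75, Serpina3n fell by 0.61, Fga fell by 0.54, Itih4 fell by 0.51, Cp fell by 0.33 and Fgg fell by 0.28, with adjusted p-values of 0.0171, 0.0173, 0.0139, 0.000205, 0.0243 and 0.00667. Fga and Fgg encode fibrinogen chains, and the third chain, Fgb, gave -0.23 (adjusted p = 0.0685). The hepcidin genes went the other way, with 1.66 for Hamp2 (adjusted p = 0.00971) and 0.89 for Hamp (adjusted p = 0.0457). Saa4, the constitutive serum amyloid A, gave -0.14 (adjusted p = 0.722) and Mbl2, a mannose-binding lectin, gave 0.04 (adjusted p = 0.814). The positive genes thus did not move as a single block, and the constitutive neighbour of Saa1 did not pass the test.

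Among 21 negative acute-phase genes 5 rose and 2 fell, with a median of 0.08. Serpina7, the thyroxine-binding globulin, rose by 1.56 (limma adjusted p = 1.16e-05) and Serpina6, the corticosteroid-binding globulin, rose by 1.06 (adjusted p = 1.87e-06). Ttr, transthyretin, rose by 0.17 (adjusted p = 0.011). Alb gave 0.00, but its probe is among the brightest of the array and has the same value in every mouse after quantile normalization, so it carries no information here. Among 15 partners that bind or clear the members 3 rose and 1 fell.

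**Figure D5:**
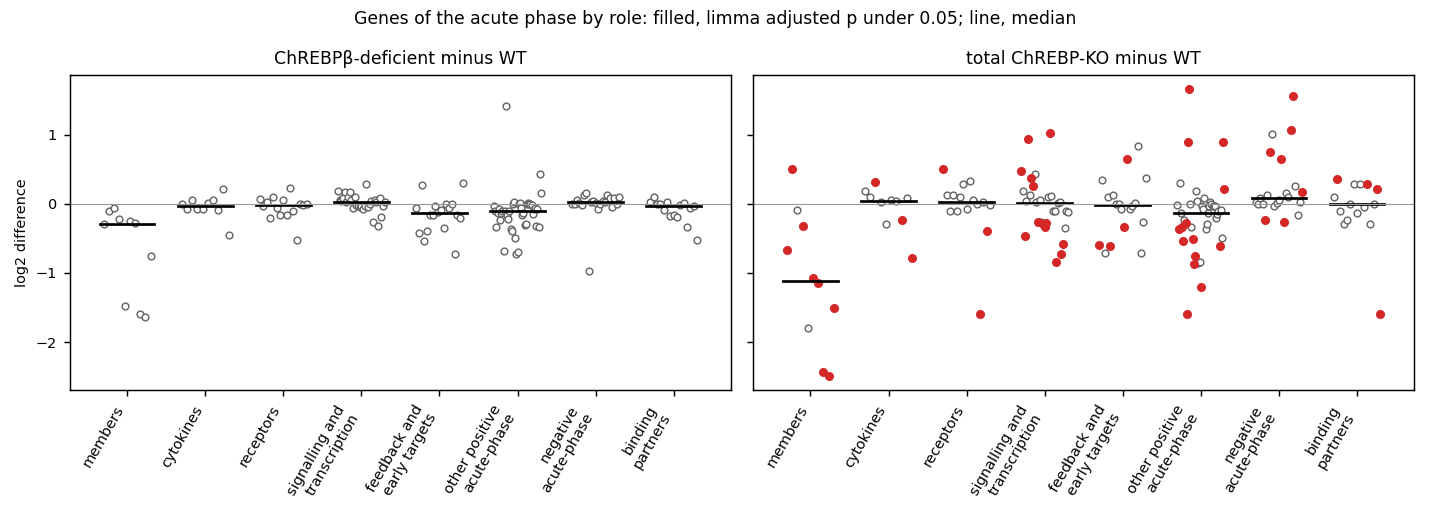
Log2 difference (y axis) of the genes of each acute-phase role (x axis) in ChREBPβ-deficient (left) and total ChREBP-KO mice (right), with filled points where the limma adjusted p was under 0.05 and lines at medians. The median of the members lies at -1.11 in total ChREBP-KO mice and that of the other positive acute-phase genes at -0.13.

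Markers of other cells were read beside these results. Of 12 macrophage markers all were kept and none passed in total ChREBP-KO mice by limma, also not at an unadjusted p under 0.05 (0 of 12), and their summed log2 signal ranged from 14.06 to 14.60 in these mice and from 13.78 to 14.75 in WT littermates. Of 13 neutrophil markers 10 were kept and 1 fell, Mpo by 0.21 on the log2 scale (limma adjusted p = 0.039), while Ly6g gave -0.18 (adjusted p = 0.134). Prtn3, which is not on this list, also fell. Their summed signal ranged from 15.22 to 15.56 in total ChREBP-KO mice and from 15.32 to 15.58 in WT littermates, mostly from Csf3r. The deviations of the summed macrophage and neutrophil signals correlated with those of Saa1 with r = 0.25 and 0.10 over 31 mice, given as a description. Of 9 adipocyte markers 8 were kept, Adipoq was not among them, and 1 rose, Car3 by 0.79 (limma adjusted p = 6.4e-05), which hepatocytes also express. Their summed signal ranged from 17.28 to 17.64 in total ChREBP-KO mice and from 16.27 to 17.06 in WT littermates, and its deviations had r = -0.74 with Saa1. By single marker 6 of the 8 differences were negative, with a median of -0.07, so the higher sum does not stand for most of these markers. Of 7 kept markers of exocrine pancreas 3 fell, led by Cela3b with -1.45 (limma adjusted p = 0.0346), of 10 endothelial and stellate cell markers 2 rose, of 6 red blood cell markers 1 rose, and of 9 lymphocyte markers 0 passed by limma and 1 did without adjustment. The part of these cells in the results was not tested.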

How the data were processed

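Total liver RNA of 31 mice, 1 sample each, was labeled with Cy3 and hybridized to one-color Agilent mouse arrays. Per the labels, the authors ran Feature Extraction 10.10.1.1. They deposited its output, in which each spot has an intensity that is not yet normalized, and their own quantile-normalized log2 table. The array annotation uses mouse build mm9.

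After the methods of the study, log2 of the median intensity was taken. Spots had to be found, positive and above background (well above, per the scanner) on 26 or more arrays, or on 6 or more of 1 group. Quantile normalization followed, and spots of 1 probe were reduced to their median. This gave 36059 probes, which differed from the deposited log2 values by -0.03 to 0.03 between percentiles 1 and 99. No kept spot was saturated. Groups came from the labels, which do not name litters, so p-values measure the spread between these mice. The number of arrays limits the precision.

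All 4 groups entered 1 linear model in limma 3.58.1 (R 4.3.3), with Benjamini-Hochberg adjustment over all probes and a threshold of 0.05. Permutations used Python 3.11.15 and numpy 2.4.6. The programs were tested on simulated data. The members, lists, motifs and tests were chosen with earlier results of these data known. Genes were named if they were members, pathway-list genes (not cell type markers) called with a log2 difference of 1 or more in total ChREBP-KO mice, pathway genes listed in the design, or the 5 genes most like Saa1 or Lcn2. Others were named after their values were seen.

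Alternatives were scaling to percentile 75 (median or processed signal), normexp with an offset of 50, other filters, the deposited values, blocks for slide, scan day or replicate number, separate fits, eBayes with trend, removal of outlier spots, weights per group (added after seeing the data), the exact Mann-Whitney test and leaving out each array.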

Additional observations from a re-analysis of the deposited data

Results flagged for a closer look

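The effect of the deletions differed between the 2 lines for 4 probes by the difference of differences in limma. These were Orm1 (-0.81), Orm2 (-0.87), Crp at its main probe (0.60) and, for the targeted gene, the brightest Mlxipl probe (-0.70). Each value is the total ChREBP-KO minus the ChREBPβ-deficient effect on the log2 scale. The rest of the 12 member probes did not pass, while 15.1% of all probes did. The other Mlxipl probes did not pass either, with -0.14 for A_55_P2728555 (limma adjusted p = 0.729) and 0.01 for A_55_P2045158 (adjusted p = 0.958). A mouse lay far from the others of its group for Orm2 in ChREBPβ-deficient replicate 7, with a value of 14.28, and for the dim Crp probe in ChREBPβ-deficient replicate 3, with a value of 6.53. These were 2 of 60 groups tested over member and Mlxipl probes, and chance alone singles out about 1 group in 20.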

How the results depend on the processing

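Of the 12 member probes, the total ChREBP-KO differences of Saa2, Orm1, Orm2, Hpx and the main Crp probe kept their direction and their call under every alternative and without each array. Saa1 and Saa3 lost it with the exact Mann-Whitney test and kept it under the others run. Saa3 and the dim Crp probe had no value when spots had to pass on all arrays. The exact Mann-Whitney test called 5 member probes lower in place of 8. Probe A_51_P510156 of Lcn2 lost it with normexp (-1.65), without a filter (-1.94), with the exact Mann-Whitney test and without any 1 of 10 arrays, and probe A_55_P2070869 gained it with all arrays required, with slide as a random (-1.83) or fixed block (-2.31) and without any 1 of 7 arrays. With slide as a fixed block 0 member probes were higher in the difference of the deletions. In that contrast 1 to 2 member probes were called lower when arrays were left out, and Orm2 ranged from -1.0 to -0.76. The ChREBPβ call of Mlxipl was lost with slide as a fixed block (-0.52, limma adjusted p = 0.30), a separate fit (-0.45, adjusted p = 0.218), the exact Mann-Whitney test (-0.45, adjusted p = 0.477) and the replicate block (-0.45, adjusted p = 0.46), and it ranged from -0.49 to -0.42 without single arrays. A r over 0.1, and up to 0.53, was found in 6 of 8 same-number pairs of the ChREBPβ line, where 4 mice correlated best with their own number. In the other line 2 of 7 pairs had a r over 0.1, and 1 mouse correlated best with its own number. The labels do not name pairs, and the main fit did not pair the mice. Whether the numbers mark pairs in the ChREBPβ line was not tested. The replicate block changed no member call. Between the WT groups, slide as a fixed block reversed Saa3 (0.40) and Lcn2 (0.83 for both probes), none of which was called, and requiring all arrays, which removed the dim Crp probe, left 0 member probes called lower. The causes were not tested. Without single arrays, uncalled differences changed sign in the WT comparison for Hp (-0.02 to 0.02), Hpx (-0.04 to 0.05), Lcn2 (-0.39 to 0.29 and -0.37 to 0.31), Orm1 (-0.01 to 0.19) and Saa3 (-0.26 to 0.14), Mlxipl ranged from 0.16 to 0.22 with a call in some, and in ChREBPβ-deficient mice for the dim Crp probe (-0.05 to 0.08). The correlations with Saa1 kept their call with 75th-percentile scaling, the deposited values and scan day or slide removed. Within total ChREBP-KO mice, which are 7, calls were lost for Saa3 (0.24), Orm1 (0.77), Orm2 (0.68), Lcn2 (0.86), Apcs (0.34) and Crp (0.07), and Hp (-0.18) and Hpx (-0.08) changed sign. Within ChREBPβ-deficient mice they were lost for Orm1 (0.57), Orm2 (0.42), Hp (0.65), Hpx (0.72) and Crp (0.47), and Apcs changed sign (-0.26). Within WT mice of the total ChREBP-KO line they were lost for Hpx (0.71), Apcs (0.61) and Crp (0.72), and within those of the ChREBPβ line for Crp (0.56). The precision is limited by 7 or 8 mice a group and, for Alb, by quantile normalization, which gave it 1 value. Other very bright probes of the lists also had little spread, such as Serpina1a (group SDs 0.01 to 0.03) and Apoa2 (0.02 to 0.03). Whether normalization narrowed their differences, which enter the list medians, was not tested. Hp gave -0.16 in total ChREBP-KO mice with percentile 75 scaling in place of -0.09, with no call in either.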
